A study of Mus musculus with 8 samples.

Results

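The levels of 10 tubulin genes in mouse heart ventricle were followed over the first week after birth. They were the α-tubulins Tuba8, Tuba1a, Tuba1b, Tuba1c and Tuba4a and the β-tubulins Tubb2a, Tubb2b, Tubb3, Tubb5 and Tubb6. Their probes were found by the RefSeq accessions in the array files, which gave 14 probes for the 10 genes, of 56590 probes and 22909 named genes on the array. Total RNA had been measured on 8 single-colour (Cy3) Agilent oligonucleotide arrays, all on 1 slide and read in 1 scan. The 4 groups of 2 arrays were homozygous Tnnt2 ΔK210 knock-in mice (KI) at 1 week, wild-type mice (WT) at 1 week, KI mice at birth (0 day) and WT mice at birth. The KI allele removes lysine 210 of cardiac troponin T, the thin-filament protein through which calcium starts contraction, and the same deletion is known from human dilated cardiomyopathy. The labels state that 3 ventricle samples went into each pool and that 100 ng of RNA was labelled, and the series' design text calls the tissue left ventricle. It is not stated whether both arrays of a group share a pool, so errors and p-values measured the spread between arrays, which may be technical. The genes were chosen by family, with their age and genotype values on these arrays known, above all the level of Tuba8 at 1 week. The age tests of the genes other than Tuba8 were thus run on values already seen, so their p-values are not independent of the choice.

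Microtubules are hollow polymers of α- and β-tubulin dimers, and each of these subunits is made from several genes whose products, the isotypes, differ mainly in their C-terminal tails. The tails carry most of the chemical marks of tubulin, among them the removal and re-addition of the last tyrosine of α-tubulin. In heart muscle cells detyrosinated microtubules bind desmin at the sarcomere and resist its shortening, and their number is known to grow in failing hearts. Tuba8 is a divergent α isotype known in mice from heart, skeletal muscle and testis. Tuba4a is an α isotype whose gene does not encode the last tyrosine. Tuba1a and Tubb3 are best known from neurons, Tubb2b from the developing brain, and Tuba1b and Tubb5 from dividing cells of many tissues.

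Levels are log2 processed signal minus the 75th percentile of the non-control probes of the same array, so 0 is the 75th percentile and 1 unit is a doubling. A level can be compared between arrays for the same probe, but not between probes. The 4 arrays at 1 week are called A to D, because 3 of them carry another sample in the deposited value table than in the deposited scanner files. By the value table, which is followed here, the KI arrays were B and C and the WT arrays were A and D. By the scanner files, the KI arrays were C and D and the WT arrays were A and B. For the birth arrays the records gave identical samples. Slide row 2 held the 1-week arrays and slide row 1 the birth arrays, so age cannot be told apart from row. Within row 1, KI lay in columns 3 and 4 and WT in columns 1 and 2, so genotype cannot be told apart from column there. Within row 2, arrays A to D lay in columns 1 to 4 in that order. By the scanner files WT thus held columns 1 and 2 and KI columns 3 and 4. Genotype at 1 week cannot be told apart from column in that record either. By the value table KI held columns 2 and 3 and WT columns 1 and 4.

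All 8 markers of ventricular heart muscle cells were well above background on every array, and their summed level was 11.02 to 11.19 at 1 week and 10.94 to 11.05 at birth. Array A stood apart in atrial markers, whose summed level was 5.50 there, against 8.16 to 8.44 on arrays B to D and 8.26 to 8.68 at birth. Array D stood apart in how well different probes of the same gene moved together: over 5175 genes the median departure between probes was 0.319 on array D and 0.0878 to 0.134 on the other 7 arrays. The scanner software marked KI birth replicate 1 for evaluation and the other 7 arrays as in range. Tnnt2 itself, whose probe cannot show a deletion of this size, differed by -0.04 ± 0.14 between 1 week and birth (SE). All 14 tubulin probes were well above background on all 8 arrays, and none was saturated.

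Tuba8 had the largest difference between the ages of the 10 genes. Its probe (A_66_P119518, gene on chromosome 6) read 3.81 and 3.80 in KI ventricles and 4.07 and 3.65 in WT ventricles at 1 week, against -0.76 and -1.12 in KI ventricles and -0.34 and -0.65 in WT ventricles at birth. The ages lay far apart, and within each age the arrays spread over less than 1 unit. The mean was 3.83 ± 0.17 at 1 week and -0.72 ± 0.32 at birth (SD, n = 4 arrays each), a difference of 4.55 ± 0.15 (SE) or 23.4-fold. Of the 35343 probes tested, 3 had a larger positive difference, and 2 named genes did. Because the gene was chosen with this difference known, its values are given as a description with no test. The group means were 3.80 in KI and 3.86 in WT ventricles at 1 week, and -0.94 in KI and -0.50 in WT ventricles at birth. By the value table the 2 groups at 1 week overlapped, whereas the KI and WT arrays at birth did not. By the scanner files the 1-week groups did not overlap either, with KI at 3.65 to 3.80 and WT at 3.81 to 4.07. The share of all probes that separate the genotypes in this way was not counted. The KI minus WT difference at birth was -0.44 ± 0.21 (SE). Its 95% interval ran from -0.94 to 0.06 and so held both signs. In a pooled tissue, more cells of a type and more RNA per cell cannot be told apart.

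**Figure D1:**
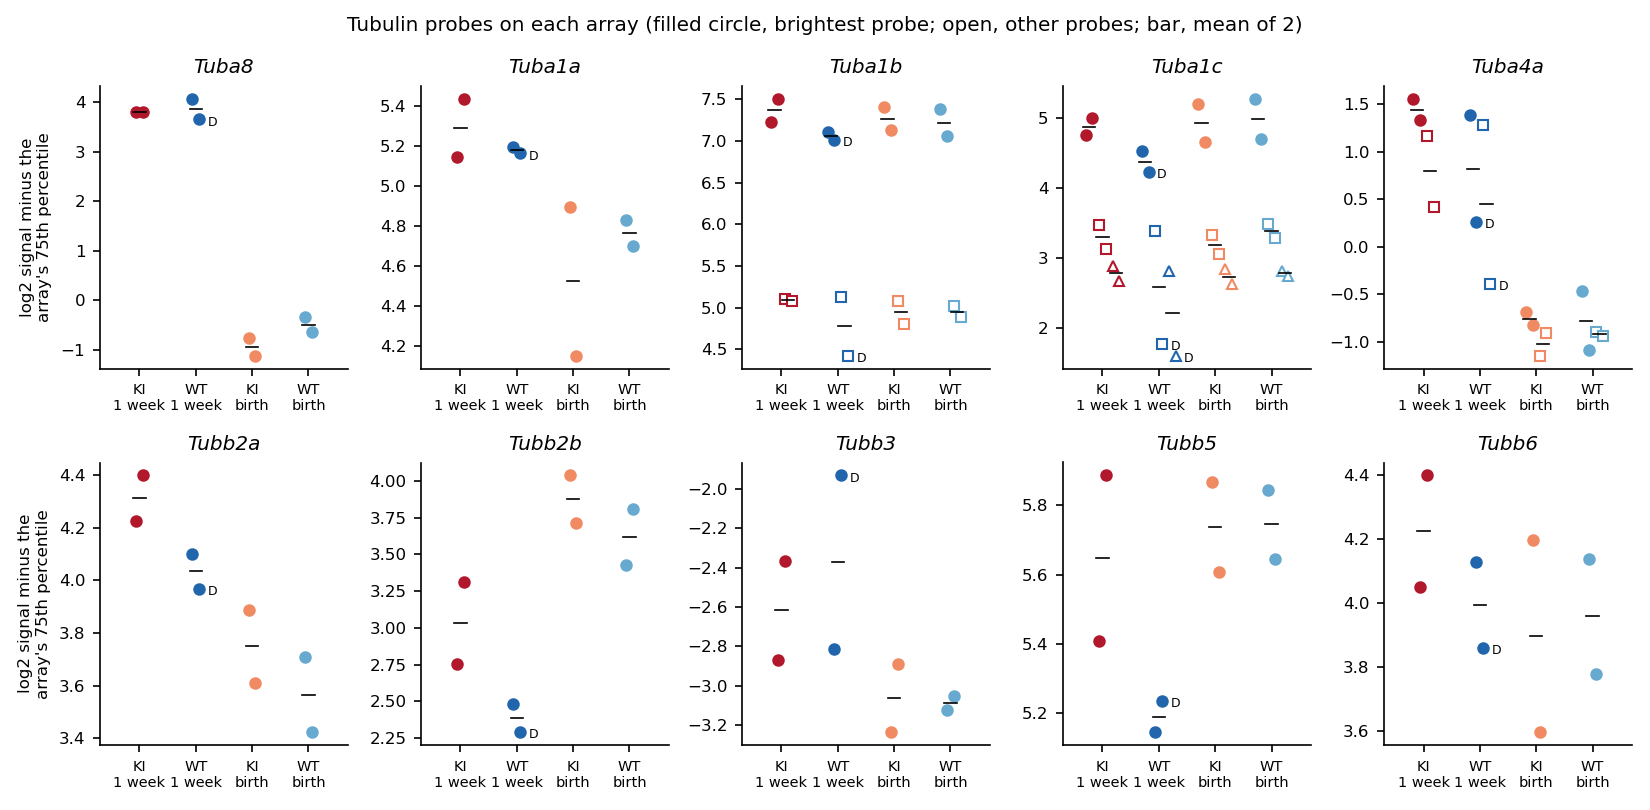
Level of each tubulin probe (log2 signal minus the array's 75th percentile) on each array, with KI and WT at 1 week on the left and KI and WT at birth on the right of each panel, 1-week groups by the value table; filled circles are the brightest probe of a gene, open symbols its other probes, bars the mean of 2 arrays, and D marks array D. Tuba8 and Tuba4a lie higher and Tubb2b lower on all arrays at 1 week, and array D lies low for 2 of the 3 Tuba1c probes.

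Tuba4a was the α isotype that rose in the test, by both of its probes. Its brighter probe (A_65_P05809, chromosome 1) read 1.56 and 1.33 in KI ventricles and 1.38 and 0.26 in WT ventricles at 1 week, against -0.69 and -0.82 in KI ventricles and -0.46 and -1.09 in WT ventricles at birth. Its other probe (A_52_P409498) read 1.17 and 0.41 in KI ventricles and 1.28 and -0.39 in WT ventricles at 1 week, against -1.14 and -0.90 in KI ventricles and -0.89 and -0.94 in WT ventricles at birth. On both probes every 1-week array lay above every birth array, and array D was the lowest of the 1-week arrays. In the mean over both genotypes the brighter probe rose by 1.90 ± 0.26 (3.73-fold, adjusted p = 0.0035 in limma, with Benjamini-Hochberg adjustment over 35343 probes) and the other by 1.59 ± 0.36 (3.01-fold, adjusted p = 0.021). Without array D the rises were 2.18 and 2.00, and without array A they were 1.62 and 1.17. The call of the brighter probe held without each single array, with adjusted p up to 0.018. The other probe lost it without array B (adjusted p = 0.072) and without each of the birth arrays (adjusted p = 0.058 to 0.076).

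Among the β isotypes, 2 genes that are near neighbours on chromosome 13 moved in opposite directions. Tubb2a (probe A_51_P490023) read 4.22 and 4.40 in KI ventricles and 4.10 and 3.97 in WT ventricles at 1 week, against 3.89 and 3.61 in KI ventricles and 3.71 and 3.42 in WT ventricles at birth. All 1-week arrays were above all birth arrays, by a margin smaller than the spread within an age. By the value table KI at 1 week ranked highest, then WT at 1 week, KI at birth and WT at birth. Of these neighbours only the birth groups overlapped. By the scanner files the 1-week groups overlapped as well, with KI at 3.97 to 4.40 and WT at 4.10 to 4.22. How many of all probes separate such groups was not counted. Tubb2a rose by 0.52 ± 0.13 (1.43-fold, adjusted p = 0.027), from means of 4.17 ± 0.18 at 1 week and 3.66 ± 0.19 at birth (SD, n = 4 each). This call was lost without array B (adjusted p = 0.063), array C (0.089), WT birth replicate 2 (0.089), KI birth replicate 1 (0.052) or KI birth replicate 2 (0.092).

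Tubb2b (probe A_55_P2034864) read 2.76 and 3.31 in KI ventricles and 2.48 and 2.29 in WT ventricles at 1 week, against 4.04 and 3.71 in KI ventricles and 3.43 and 3.81 in WT ventricles at birth. The ages did not overlap, and array C came nearest to the birth arrays. By the value table KI at birth ranked highest and overlapped WT at birth, followed by KI and then WT at 1 week, which did not overlap. By the scanner files the 1-week groups overlapped, with KI at 2.29 to 3.31 and WT at 2.48 to 2.76. Tubb2b fell by 1.04 ± 0.17 on the log2 scale (2.05-fold lower, adjusted p = 0.0066), and this held without each single array, with adjusted p up to 0.032. A set of 12 proliferation markers was well above background on every array. Their summed level was 4.98 to 5.81 at 1 week and 5.32 to 5.91 at birth. Of their 16 probes 3 were called lower and 0 higher, beside 10.1% lower and 12.8% higher over all probes. The median was -0.37, and by the scanner-file record 1 probe was called lower and 0 higher. Among the 1-week arrays those markers had the same order as Tubb2b, with C highest, then B, A and D. Tubb2a, which rose, had this order too, as did Tuba1b probe A_55_P2154132 and Tuba1c probe A_55_P2108837. The share of all probes with this order was not counted, and array D was the lowest 1-week array for 29.3% of all probes tested. At birth the marker sum was highest (5.91) on WT replicate 1, where Tubb2b was lowest (3.43). The part of the markers in the fall of Tubb2b was not tested. In the RefSeq gene table of GRCm38.p6, 1 gene lies between Tubb2a and Tubb2b, and no protein-coding one.

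Of the 13 probes of the 9 genes other than Tuba8, 3 were called higher at 1 week and 1 lower. The values behind these calls were known when the genes were chosen. Over the array 22.8% of all 35343 probes were called, 12.8% higher and 10.1% lower, so calls of this number are not particular to the tubulins. The median difference of these 13 probes was -0.02, and that of all probes was 0.01. Of all 14 probes, 7 had no overlap between the 4 arrays of 1 week and the 4 of birth, 6 of them above and 1 below, beside 31.5% of all probes. With the scanner-file record the mean-age differences are the same, since both genotypes enter with equal weight, but the spread within groups is not. There Tubb3 passed as well (adjusted p = 0.026), which made 4 probes higher and 1 lower beside 23.8% of 35400 probes.

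**Figure D2:**
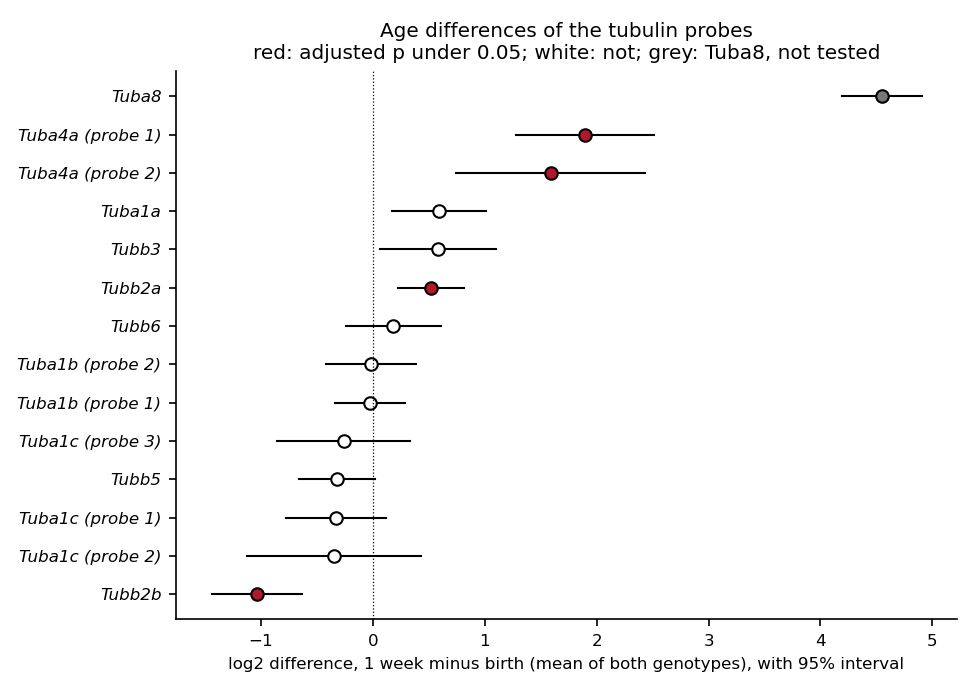
Difference between 1 week and birth for each tubulin probe (log2, mean of both genotypes; points with 95% intervals from limma), red where adjusted p was under 0.05, white where not, grey for Tuba8, which was not tested. Probe numbers run from the brightest; Tuba8 (4.55) and Tuba4a (1.90 and 1.59) lie to the right, Tubb2b (-1.04) to the left and the rest between -0.35 and 0.59.

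The first 250 bases upstream of the start of Tuba8, Tuba4a and Tubb2a are shown, from RefSeq's GRCm38.p6, because Tuba8 had the largest difference and Tuba4a and Tubb2a were the genes that rose in the test. They are Tuba8 (chr6:121210484-121210733, plus strand), Tuba4a (chr1:75219295-75219544, minus strand) and Tubb2a (chr13:34078009-34078258, minus strand), each written 5′ to 3′. Capitals mark the E-box CANNTG, read on both strands, and the TATA motif TATAAA.
Tuba8: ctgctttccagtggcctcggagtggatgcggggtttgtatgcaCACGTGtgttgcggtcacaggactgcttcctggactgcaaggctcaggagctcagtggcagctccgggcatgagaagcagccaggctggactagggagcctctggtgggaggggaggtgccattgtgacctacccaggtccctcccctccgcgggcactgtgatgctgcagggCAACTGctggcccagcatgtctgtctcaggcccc
Tuba4a: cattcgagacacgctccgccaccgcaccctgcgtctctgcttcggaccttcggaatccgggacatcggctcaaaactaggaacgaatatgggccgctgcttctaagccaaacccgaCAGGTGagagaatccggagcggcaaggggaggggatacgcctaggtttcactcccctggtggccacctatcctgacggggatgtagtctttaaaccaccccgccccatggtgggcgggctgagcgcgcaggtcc
Tubb2a: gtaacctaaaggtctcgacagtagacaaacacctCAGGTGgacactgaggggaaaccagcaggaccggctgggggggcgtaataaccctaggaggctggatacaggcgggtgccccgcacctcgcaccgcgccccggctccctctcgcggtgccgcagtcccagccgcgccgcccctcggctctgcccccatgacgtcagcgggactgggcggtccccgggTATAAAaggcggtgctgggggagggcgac
The E-box and TATAAA matches do not overlap. E-boxes begin 207 and 34 bases before the start of Tuba8, 134 bases before that of Tuba4a and 216 bases before that of Tubb2a. Of the 8 genes with an entry, 7 hold an E-box, as do 66.2% of all 32851 upstream windows of this length. Only Tubb2a holds TATAAA, at 29 bases, a motif in 12.4% of all windows. The GC box GGGCGG was found in 5 of the 8 genes and in 32.7% of all windows, with no match for Tuba8. The MEF2 and CArG motifs of muscle genes and the nuclear receptor half-site AAGGTCA had no match in the 8 windows, and are in 2.92%, 1.47% and 4.08% of all windows.

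Tuba1a and Tubb3 were separated by age but did not pass the test. Tuba1a (A_51_P169745, chromosome 15) read 5.14 and 5.44 in KI ventricles and 5.19 and 5.16 in WT ventricles at 1 week, against 4.89 and 4.15 in KI ventricles and 4.83 and 4.70 in WT ventricles at birth. The lowest array was KI birth replicate 2, far below the other 3 birth arrays. The difference was 0.59 ± 0.18 (adjusted p = 0.053), which lay so near the threshold that 6 of 16 alternatives put it past, among them the fit without KI birth replicate 1 (0.78, adjusted p = 0.021). Without KI birth replicate 2 it was 0.40 (adjusted p = 0.11). Tubb3 (A_51_P381381, chromosome 8) read -2.87 and -2.37 in KI ventricles and -2.81 and -1.93 in WT ventricles at 1 week, against -3.24 and -2.89 in KI ventricles and -3.12 and -3.05 in WT ventricles at birth. The 1-week arrays fell into a lower pair, A and B, and a higher pair, C and D, and the gap to the birth arrays was narrow. The difference was 0.58 ± 0.22 (adjusted p = 0.10), and it depended on single arrays, with 0.36 without array D (adjusted p = 0.19) and 0.80 without array A (adjusted p = 0.020). Of a set of 12 other neuronal markers, 8 were well above background on every array and each on some array. Their summed level was 5.44 to 5.85 at 1 week and 5.21 to 5.65 at birth, with array D highest as for Tubb3. Among the birth arrays the sum was lowest (5.21) on KI replicate 2, where Tubb3 was highest (-2.89). Of the 14 tested probes of that list, Tubb3 included, 4 were called higher and 0 lower, with a median of 0.48. Over all probes the shares were 12.8% higher and 10.1% lower. The part of the neuronal markers was not tested.

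The isotypes known from many dividing cell types showed no call with age. Tuba1b, whose probes A_55_P2154132 and A_55_P2116496 spanned 7.01 to 7.50 and 4.42 to 5.13 at 1 week and 7.05 to 7.40 and 4.81 to 5.08 at birth, differed by -0.03 ± 0.13 and -0.02 ± 0.17. Tubb5 (A_52_P163795, chromosome 17) spanned 5.15 to 5.89 at 1 week and 5.61 to 5.87 at birth, a difference of -0.32 ± 0.14 (adjusted p = 0.15). Tubb6, a minor β isotype of many tissues (A_51_P421140), spanned 3.86 to 4.40 at 1 week and 3.60 to 4.20 at birth and differed by 0.18 ± 0.18. These probes overlapped between the ages. The 95% intervals of their mean-age differences ran from -0.34 to 0.29 and from -0.42 to 0.39 for Tuba1b, from -0.66 to 0.02 for Tubb5 and from -0.24 to 0.60 for Tubb6.

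Of the 3 genes with several probes, Tuba1c had the probes that disagreed most, on array D and also on array A. Its probe with 10 spots on the array (A_55_P2108837) read 4.75 and 4.99 in KI ventricles and 4.52 and 4.23 in WT ventricles at 1 week, against 5.20 and 4.65 in KI ventricles and 5.27 and 4.70 in WT ventricles at birth. Probe A_55_P2722644 read 1.77 on array D, against 3.12 to 3.47 on arrays A to C and 3.05 to 3.49 at birth. Probe A_55_P2740841 read 1.60 on array D, against 2.67 to 2.89 on arrays A to C and 2.62 to 2.83 at birth. So both single-spot probes lay more than 1 unit lower on array D than on any other array, whereas the probe with 10 spots read 4.23 there, next to 4.52 on array A. On array A the probe with 10 spots lay below all birth arrays. The single-spot probes read 3.39 and 2.81 on array A, within the range of their birth arrays. The 10 spots of that probe varied by a SD of 0.0703 on array D and by 0.0409 to 0.165 on the other 7 arrays.

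The mean-age differences of the 3 Tuba1c probes were -0.33 ± 0.19, -0.35 ± 0.33 and -0.26 ± 0.25, none past the threshold. Without array D those of the 2 single-spot probes were 0.05 and 0.04, and without array A they were -0.76 (adjusted p = 0.016) and -0.56 (adjusted p = 0.019). Array D was the lowest of the 1-week arrays for 11 of the 14 tubulin probes (78.6%), beside 29.3% of all probes tested. Tuba1a, Tuba1b and Tuba1c lie together on chromosome 15 and their coding sequences are very alike. Whether one gene's RNA binds another's probe was not tested.

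**Figure D3:**
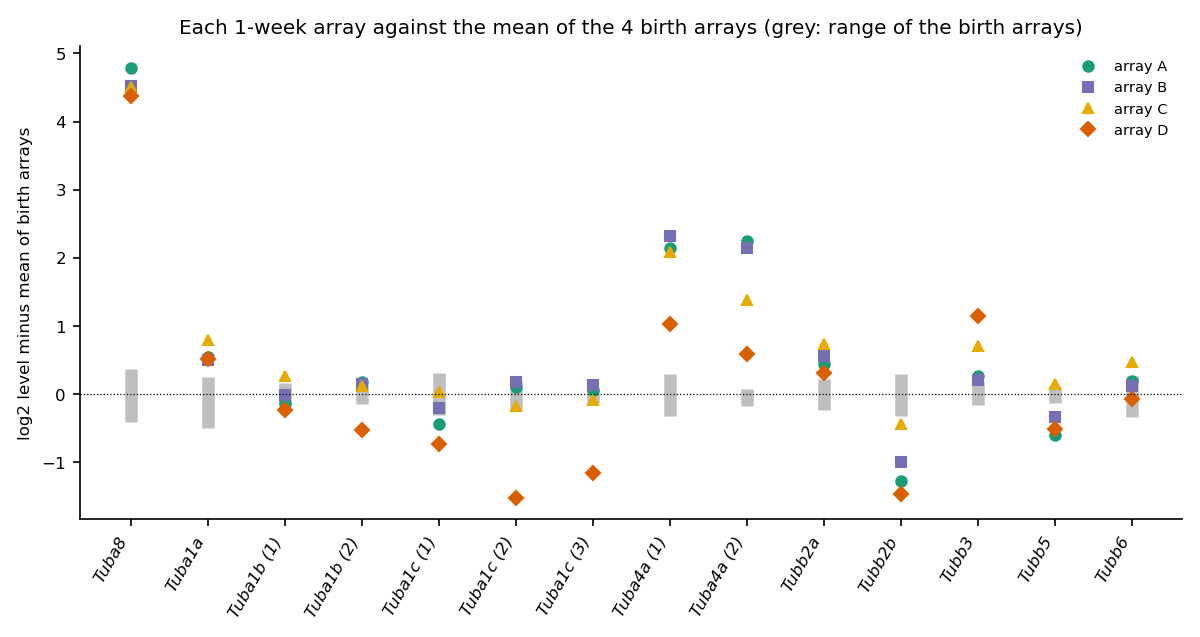
Level of each tubulin probe on each 1-week array minus its mean over the 4 birth arrays (log2), with the range of the birth arrays in grey and probes of a gene numbered from the brightest. Arrays A to C stay close together for most probes, whereas array D lies lowest for 11 of 14 probes and is more than 1 unit below the birth mean for 2 Tuba1c probes.

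Each genotype was also followed on its own. In KI ventricles only the brighter Tuba4a probe passed, with 2.20 ± 0.37 (adjusted p = 0.019), 1 of 13 probes beside 6.1% of all probes. In WT ventricles that probe rose by 1.60 ± 0.37 (adjusted p = 0.035) and Tubb2b fell by 1.24 ± 0.24 (adjusted p = 0.021), 2 of 13 probes beside 13.5% of all. Tubb2b in KI ventricles differed by -0.84 ± 0.24 (adjusted p = 0.098) and Tubb2a by 0.56 ± 0.18 in KI ventricles (adjusted p = 0.13) and 0.47 ± 0.18 in WT ventricles (adjusted p = 0.12). The Tuba8 difference was 4.74 ± 0.21 in KI ventricles and 4.36 ± 0.21 in WT ventricles. That a probe passed in one genotype and not in the other does not show that the genotypes differ, and the age by genotype term, which holds the genotype difference at 1 week, was not tested on these genes.

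These within-genotype calls depended on the record and on single arrays. With the scanner-file record the brighter Tuba4a probe (1.55, adjusted p = 0.043) and Tubb3 (0.91 ± 0.19, adjusted p = 0.034) passed in KI ventricles, beside 9.88% of all probes. In WT ventricles of that record both Tuba4a probes passed (2.25, adjusted p = 0.016, and 2.14, adjusted p = 0.0073), beside 8.5% of all probes, and Tubb2b did not (-1.002, adjusted p = 0.12). By the value table, the Tuba4a call in KI ventricles was lost without any 1 of the 4 KI arrays, which leaves 1 array in an arm. In WT ventricles neither call held without WT birth replicate 1 or 2, and that of Tubb2b did not hold without array D. These fits also leave 1 array in an arm. The Tuba4a call in WT ventricles was lost without any 1 of the 4 KI arrays as well, and with only the WT arrays.

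At birth no tubulin probe separated the genotypes in the test. KI minus WT differences of the 13 probes ran from -0.24 (Tuba1a) to 0.26 (Tubb2b), 0 of 13 passed, and 0 had an unadjusted p under 0.05 in limma. Over the whole array 2 of 35343 probes were called (0.00566%). The widest 95% interval, that of the Tuba4a probe A_52_P409498, ran from -1.30 to 1.08, so that a 2-fold difference in either direction lay within it. Tuba8, at -0.44, lay outside the range of the others.

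At 1 week the genotype values are given as a description, since this contrast was in view when the genes were chosen. In the value-table record, 12 of 14 KI minus WT differences were positive, with a median of 0.33. Over all probes 15736 of 35343 were positive with a median of -0.04, and 0.0141% were called in that contrast. The tubulin differences ran from -0.25 ± 0.31 for Tubb3 to 0.71 ± 0.47 (SE) for the Tuba1c probe A_55_P2722644, and Tubb2b had 0.65 ± 0.24. By the scanner files 7 of 14 were positive with a median of -0.0016. Over all probes of that record 19336 of 35400 were positive with a median of 0.03, and 0.00847% were called. There the tubulin differences ran from -1.21 ± 0.26 for the Tuba4a probe A_52_P409498 to 0.69 ± 0.19 for Tubb3. The sign turned between the records for 7 of the 14 probes, which were all 3 of Tuba1c, both of Tuba4a, 1 of Tuba1b and the Tubb3 probe. Without array D the median by the value table was 0.10. Tuba8 had -0.06 ± 0.21 by the value table and -0.22 ± 0.19 by the scanner files.

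**Figure D4:**
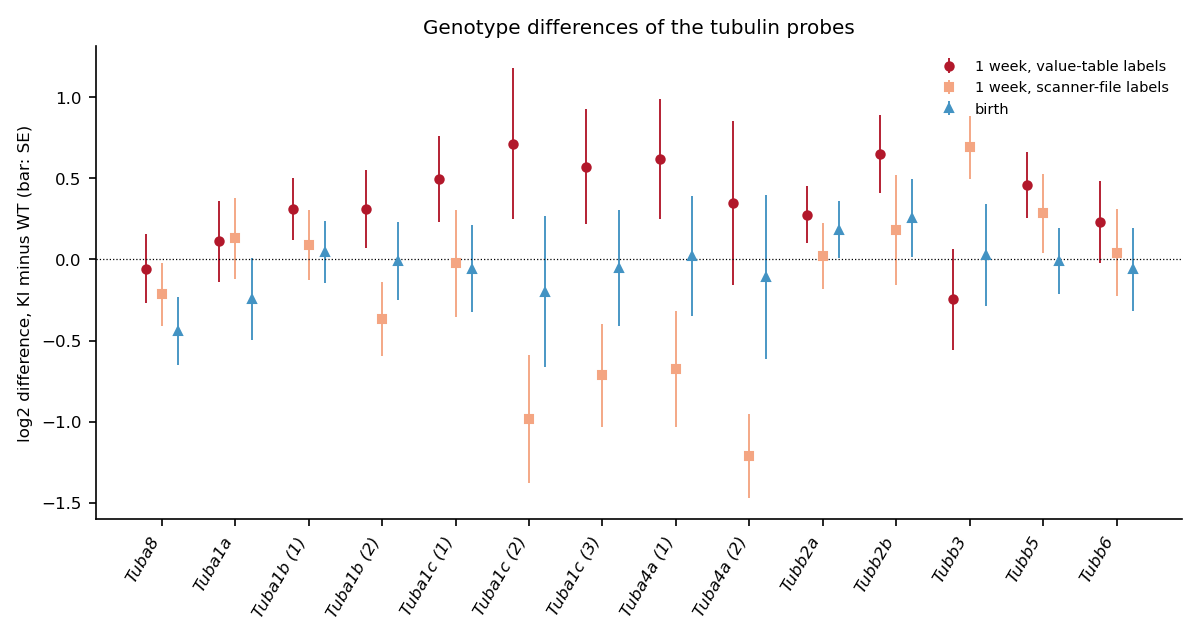
KI minus WT difference of each tubulin probe (log2, bars are SE from limma) at 1 week by the value-table and the scanner-file records, and at birth. Birth values lie between -0.44 and 0.26, whereas the 1-week values move with the record, from 0.71 to -0.98 for 1 Tuba1c probe.

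The pattern of Tuba8 over the 8 arrays was set against that of 14552 named genes, with the brightest probe for each gene. The highest Pearson coefficients, given as a measure of likeness with no test, were those of Raver1 (0.998), an RNA-binding protein gene, Pcsk6 (0.996), a proprotein convertase, Spata33 (0.995), Cmbl (0.994), a hydrolase, and Pcolce2 (0.993), an enhancer of procollagen processing. All 5 were higher on every 1-week array than on every birth array, by a mean of 0.81 (Cmbl) to 3.46 (Pcolce2) log2 units. A coefficient over 0.9 was reached by 1056 genes, and all these arrays share the split into 2 ages. Among the tubulins the coefficient was 0.94 for Tuba4a, 0.85 for Tubb2a, 0.83 for Tuba1a and -0.86 for Tubb2b.

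Another 10 tubulin genes had probes, and 8 of them passed the filter with 10 probes. Tubb4a, a β isotype best known from brain, rose and Tuba3b, an α isotype best known from testis, fell. Tubb4a read -1.29 and -1.32 in KI ventricles and -0.87 and -0.70 in WT ventricles at 1 week, against -2.05 and -1.68 in KI ventricles and -1.97 and -1.99 in WT ventricles at birth. Its rise was 0.88 ± 0.12 (adjusted p = 0.0033). Tuba3b read -3.57 and -4.08 in KI ventricles and -2.997 and -2.898 in WT ventricles at 1 week, against -1.89 and -1.48 in KI ventricles and -1.23 and -0.31 in WT ventricles at birth. It fell by 2.16 ± 0.23 on the log2 scale (4.46-fold lower, adjusted p = 0.0014). The size of this fall depended on the processing, with differences of -2.39 to -1.44 over the alternatives. Tuba3a, Tubb4b, Tubd1, Tube1, Tubg1 and Tubg2 did not pass, with differences of -0.07 to 0.38. Tubal3 and Tubb1, the β isotype of platelets, were not well above background on any array.

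Of 21 genes that fold tubulin and assemble its dimers, which are the cofactors, prefoldin and the CCT chaperonin, 2 rose and 3 fell by their brightest probe. By probe, 2 were higher and 6 lower of 33, beside 12.8% higher and 10.1% lower over all probes, and the median was -0.39 (-0.28 over brightest probes) beside 0.01 for all probes. Tbcel, a cofactor-like gene, rose by 0.64 ± 0.12 (adjusted p = 0.013) and Pfdn1 by 0.39 ± 0.10 (adjusted p = 0.036). Tbca, which holds β-tubulin during folding, fell by 0.42 ± 0.10 (adjusted p = 0.025), Pfdn2 by 0.46 ± 0.13 (adjusted p = 0.046) and the chaperonin subunit Cct5 by 0.37 ± 0.11 (adjusted p = 0.0497). Of 16 alternatives, these calls held in 15 for Tbcel, 8 for Pfdn1, 9 for Tbca, 5 for Pfdn2 and 5 for Cct5.

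Of 26 genes for enzymes that modify tubulin, 22 were tested, and 3 rose and 3 fell by their brightest probe. By probe, 6 were higher and 5 lower of 38, beside 12.8% higher and 10.1% lower over all probes, with a median of -0.05. Ttl, the ligase that puts the last tyrosine back on α-tubulin, read 0.24 and 0.25 in KI ventricles and 0.40 and 0.26 in WT ventricles at 1 week, against -0.70 and -0.58 in KI ventricles and -0.57 and -0.83 in WT ventricles at birth. It rose by 0.96 ± 0.11 (adjusted p = 0.0018). The glutamylase subunit Ttll1 rose by 0.84 ± 0.11 (adjusted p = 0.0029) and the deglutamylase Agtpbp1 by 0.47 ± 0.11 (adjusted p = 0.023). On the side of detyrosination, the carboxypeptidase Vash2 fell by 1.44 ± 0.18 (adjusted p = 0.0026; -0.40 by its other probe) and Svbp, the partner of the vasohibins, by 0.37 ± 0.11 (adjusted p = 0.049). The glutamylase Ttll5 fell by 0.57 ± 0.13 (adjusted p = 0.022). The calls of Ttl, Ttll1 and Vash2 held in all 16 alternatives, against 9 for Agtpbp1, 11 for Ttll5 and 5 for Svbp.

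Of 37 genes for microtubule-associated proteins, 35 were tested, and 13 rose and 2 fell by their brightest probe. By probe, 24 were higher and 4 lower of 64, beside 12.8% higher and 10.1% lower over all probes, with a median of 0.17 (0.07 over brightest probes). Mapt, the gene of tau, a binder of microtubules best known from axons, read 2.17 and 1.85 in KI ventricles and 2.55 and 2.58 in WT ventricles at 1 week, against -2.13 and -1.47 in KI ventricles and -1.85 and -1.26 in WT ventricles at birth. It rose by 3.97 ± 0.20 (15.6-fold, adjusted p = 0.00013), and its other 3 probes differed by 3.53 to 4.49. The stabilizer Map6 rose by 1.00 ± 0.10 (adjusted p = 0.0011; 0.31 by its other probe) and the doublecortin-like kinase Dclk1 by 1.67 ± 0.18 (adjusted p = 0.0013). Map7, which recruits kinesin, fell by 0.47 ± 0.10 (adjusted p = 0.017; -0.37 and -0.03 by its other probes) and Stmn1, which binds free tubulin dimers and favours depolymerization, by 0.51 ± 0.13 (adjusted p = 0.035). The calls of Mapt, Map6 and Dclk1 held in all 16 alternatives, against 11 for Map7 and 7 for Stmn1. Stmn1 had the order C, B, A and D among the 1-week arrays that the proliferation markers, Tubb2a and Tubb2b had. The share of all probes with this order was not counted.

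**Figure D5:**
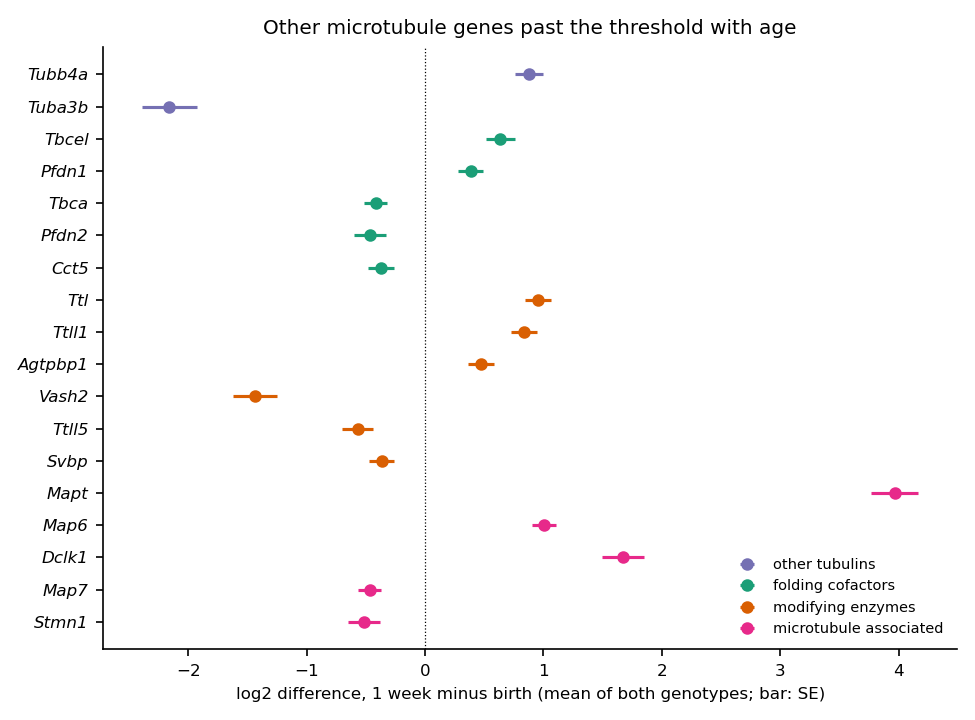
Difference between 1 week and birth (log2, mean of both genotypes; bars are SE from limma) for the genes named from 4 lists, at most 3 a direction in each, all past adjusted p of 0.05. Mapt (3.97) lies farthest to the right and Tuba3b (-2.16) farthest to the left.

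Several marker lists of other cell types differed with age, and their part in the tubulin differences was not tested. Summed levels follow the brightest genes of a list, so the counts and the median over its tested probes are given too, beside 12.8% higher and 10.1% lower over all probes. The 7 fibroblast markers, all well above background on every array, summed to 8.26 to 8.69 at 1 week and 7.35 to 7.59 at birth, with 5 of 10 probes called higher, 0 lower and a median of 0.54. The 7 adipocyte markers, 2 of them well above background on every array and each of them on some array, summed to 4.19 to 4.77 at 1 week and 3.55 to 3.92 at birth. Of their 8 probes 3 were called higher and 0 lower, and the median was 3.69, far above the shift of the sum; by the scanner-file record 5 were called higher. The 6 Schwann cell markers, 3 of them above background on every array and Cdh19 on none, summed to -0.20 to 0.42 at 1 week and -0.45 to -0.06 at birth, with 3 of 5 probes called higher, 0 lower and a median of 1.08. The 7 endothelial markers, all above background on every array, overlapped in their sum, at 7.16 to 7.72 at 1 week and 7.12 to 7.30 at birth, with 3 of 8 probes called higher, 0 lower and a median of 0.37.

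In some lists the sum and the single probes differed. The 8 leukocyte markers, 7 of them above background on every array, summed to less at 1 week (3.14 to 3.55) than at birth (3.58 to 4.34), whereas 4 of their 12 probes were called higher and 2 lower, with a median of 0.21. The 13 skeletal muscle markers, 8 of them above background on every array and Myh2, Myh4 and Actn3 on none, overlapped in their sum, at 7.56 to 7.86 at 1 week and 7.62 to 7.78 at birth, whereas 5 of their 12 probes were called lower and 0 higher, with a median of -0.52. The 7 smooth muscle markers, all above background on every array, overlapped in their sum, at 6.34 to 6.91 at 1 week and 6.54 to 7.02 at birth, with 5 of 12 probes called higher, 3 lower and a median of 0.19. The 7 platelet markers, of which 4 were above background on every array and Tubb1 on none, summed to 2.16 to 2.24 at 1 week and 1.67 to 2.06 at birth, with 1 of 6 probes called higher and 1 lower. The 8 erythroid markers, 6 of them above background on every array and Epb42 on none, overlapped in their sum, at 8.62 to 9.26 at 1 week and 8.65 to 8.82 at birth, with 1 of 7 probes called higher and 0 lower.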

How the data were processed

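The deposited scanner files hold the processed intensity of each spot on a linear scale, background-corrected by the scanner software with no normalization between arrays, per the file headers. The flags of the deposited files (other) are coded 0 and 1. The file headers give Feature Extraction 11.0.1.1 and build mm9, and the submitters' processing notes give version 9.1. The deposited value table holds the same intensity with 1 mean per probe. Its columns were matched to the scanner files at a relative tolerance of 0.0001.

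Unflagged spots of a probe were averaged, log2 was taken, and each array's 75th percentile over non-control probes was subtracted. A filter kept the 35343 probes that in some group were well above background on both arrays, and these were fitted with limma 3.58.1 (R 4.3.3; lmFit, eBayes), 1 mean per group over all 8 arrays, 4 residual degrees of freedom, and Benjamini-Hochberg adjustment with a threshold of 0.05. Named genes were all 10 tubulins, up to 3 genes a direction by smallest p from each of 4 lists (brightest probe), Tnnt2, and the 5 genes most like Tuba8. The members and lists were chosen with earlier results of these data known. A neuronal marker of the list first drawn up is not reported here and was left out of its sum. Symbols and promoters came from RefSeq's GRCm38.p6, used for names, chromosomes, gene order and the printed sequences only. On simulated data the mean-age fit called 71 of 100 probes changed 2-fold and 99 of 100 changed 4-fold, with 18 false calls among 35343 probes. The simulated noise was independent between arrays and all other probes were unchanged, whereas 22.8% were called in the measured data. These rates therefore do not carry over to the measured calls. The number of arrays, 2 a group, limits the precision. Alternatives were the record, normexp (offset 50), quantile normalization, another percentile, 2 other filters, the brightest probe, the arrays compared alone, a replicate block, and each array left out.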

Additional observations from a re-analysis of the deposited data

How the results depend on the processing

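Of 524 values of single probes under other settings, 413 were unchanged, 87 lost the call, 11 gained it and 13 changed sign. Unchanged values kept direction and side of the threshold. For Tuba8, which has no call, unchanged means a shift smaller than the SD between arrays of an age. The sign changes were of Tuba1b A_55_P2154132 (0.0033 with the percentile over probes detected on all arrays), Tuba1b A_55_P2116496 (0.082 with quantile normalization and 0.0156 with that percentile) and Tnnt2 (0.0281 with normexp), and, without array D, of the single-spot Tuba1c probes, whose values with all arrays were -0.35 and -0.26. Leave-one-out ranges were -0.11 to 0.0541 and -0.192 to 0.161 for the Tuba1b probes, -0.755 to 0.0541 (A_55_P2722644) and -0.564 to 0.0426 (A_55_P2740841) for Tuba1c, and -0.174 to 0.0858 for Tnnt2. The count of 4 of 13 probes in the mean over genotypes was 2 with no filter, where 56590 probes share the adjustment, and 2 to 7 with 1 array left out. The count of 1 in KI ventricles was 4 with normexp, 0 with no filter, 2 with only the arrays compared, 2 with scanner-file labels and 0 to 2 with 1 array left out. The count of 2 in WT ventricles was 0 with no filter, 1 with only the arrays compared and 0 to 5 with 1 array left out. Over all probes, no filter gave 1106 calls against 2156 in KI ventricles and 2454 against 4763 in WT ventricles, and only the arrays compared gave 2148 in WT ventricles. One probe per gene gave 4605 calls of 15744 in the mean over genotypes, against 8075 of 35343. The 0 of 13 at birth was 0 under every alternative run. The 1-week genotype median of 0.33 was -0.0016 with scanner-file labels and 0.096 to 0.53 with 1 array left out; the cause was not tested. Replicate numbers were shared between groups, but deviations of same-numbered arrays correlated at -0.14 to 0.22, so they do not pair the arrays. With the replicate block the counts were 5, 1, 2 and 0 in the mean over genotypes, in KI, in WT and at birth, the added probe being Tubb3 (adjusted p = 0.043).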
